A study of Mus musculus with 12 samples.

Results

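The genes described here encode 7 secreted phospholipases A2 of the mouse, which are not the whole family. They are the 7 rows of the raw count table with the names Pla2g2e, Pla2g5, Pla2g2d, Pla2g2f, Pla2g1b, Pla2g10 and Pla2g12a, out of 55487 genes in the files. Of the 7 genes, 4 passed the filter on low counts (Pla2g2e, Pla2g5, Pla2g2d and Pla2g12a), among 16808 genes that did. The family was chosen from earlier results of these same 12 libraries, in which Pla2g2e stood among the largest increases with the FoxO1 inhibitor. The values of the 7 genes are therefore given as a description with no test, and tests are given for related genes only. The lists of related genes were also drawn up with earlier results of these data known.

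Polyadenylated RNA was sequenced from Min6 cells, an insulin-producing mouse line established from an insulinoma of mice that carry a viral T antigen under the insulin promoter. The control group was kept for 48 h in DMSO, the solvent. The group called FoxOi was kept for 48 h in 1 µM AS1842856, an inhibitor of the transcription factor FoxO1, and the group called Loperamide in 5 µM loperamide, an opioid receptor agonist, for the same time. The group called FoxOi_Loperamide received 1 µM of the inhibitor and 5 µM loperamide together for 48 h. Each of the 4 groups has 3 libraries, and all 12 are of the same line.

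Phospholipases A2 cut the fatty acid from the middle position of a phospholipid and leave a lysophospholipid. The secreted members are small, disulfide-rich enzymes that need calcium, leave the cell by the secretory pathway and act on membranes, lipoproteins and vesicles outside it. The arachidonic acid they can free feeds cyclooxygenases and lipoxygenases, and in islets both prostaglandin E2 and free fatty acid receptors are known to modulate insulin secretion. Most of the group II enzymes are encoded side by side on mouse chromosome 4.

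Total counts per library ran from 10640485 in Loperamide replicate 1 to 19499216 in FoxOi replicate 3. The label of a beta cell line was checked with 9 marker genes, all of which had counts in every group. Their summed level in CPM (counts scaled to library size by TMM) was 61036 to 84671 in DMSO, 62700 to 63117 with loperamide, 34624 to 39431 with FoxOi and 26780 to 31576 with both compounds. Of 12 acinar markers, 0 exceeded 1 CPM in any group, and Cpa1, Cpb1, Pnlip, Prss2 and Ptf1a had 0 counts in all groups. Of 7 fibroblast markers, Col3a1 and Lum had 0 counts in all groups and the list summed to at most 4.31 CPM in a library, and the 5 endothelial markers summed to at most 1.74 CPM. The 5 ductal markers summed to 254 to 344 CPM in DMSO, 314 to 366 with FoxOi, 166 to 226 with loperamide and 117.8 to 170.2 with both. Within that list Krt7 stood at 294, 139, 195 and 139 CPM in the order DMSO, FoxOi, loperamide and both. Spp1 stood at 6.55, 202, 0.719 and 1.07 CPM. The rest of the list was nearly without counts. In the same order Krt19 had 0, 9, 0 and 2 counts, Sox9 2, 7, 1 and 1, and Cftr 0, 2, 1 and 0.

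Pla2g2e, Pla2g5, Pla2g2d and Pla2g2f lie in a stretch of 132.3 kb on chromosome 4 (138750533 to 138882817 in the files, which hold the coordinates of GRCm38). Pla2g2e (ENSMUSG00000028751) spans 138877942 to 138882817 on the plus strand with 5 exon blocks, and Pla2g5 (ENSMUSG00000041193) spans 138799244 to 138863482 on the minus strand with 9. Pla2g2d (ENSMUSG00000041202) lies at 138775735 to 138782046 on the plus strand and Pla2g2f (ENSMUSG00000028749) at 138750533 to 138757626 on the minus strand. The others lie alone: Pla2g12a (ENSMUSG00000027999) on chromosome 3 at 129878606 to 129895825, Pla2g1b (ENSMUSG00000029522) on chromosome 5 at 115466262 to 115474722, and Pla2g10 (ENSMUSG00000022683) on chromosome 16 at 13715057 to 13730983. Within the span of Pla2g5 the annotation places Pla2g2a on the opposite strand and the small nuclear RNA Gm25280. Neither shares an exonic base with Pla2g5, so their reads can be told apart from those of its exons.

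The 250 bases before the annotated start sites of Pla2g2e, Pla2g5 and Pla2g2d are shown because Pla2g2e and Pla2g5 were highest with FoxOi and Pla2g2d, in the same cluster, was lower with FoxOi than in DMSO. They are RefSeq promoter sequences of GRCm38.p6, read 5′ to 3′ on the strand of the gene, and capitals mark matches to a searched motif. The table matched all 7 genes by symbol, with a pair of start sites for Pla2g5, and the search covered 250 bases before to 50 after each start on both strands.
Pla2g2e, chr4:138877692-138877941, plus strand: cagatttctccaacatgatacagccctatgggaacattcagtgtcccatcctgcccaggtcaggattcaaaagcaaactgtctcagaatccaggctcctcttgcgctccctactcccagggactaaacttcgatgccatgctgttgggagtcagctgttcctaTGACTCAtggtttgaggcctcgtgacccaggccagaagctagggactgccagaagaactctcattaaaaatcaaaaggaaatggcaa
Pla2g5, distal start, chr4:138863470-138863719, minus strand: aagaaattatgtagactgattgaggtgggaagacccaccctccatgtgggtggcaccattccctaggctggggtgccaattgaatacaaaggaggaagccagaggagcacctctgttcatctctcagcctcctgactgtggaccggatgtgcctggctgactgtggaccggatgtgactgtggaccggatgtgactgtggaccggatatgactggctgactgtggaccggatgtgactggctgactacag
Pla2g5, inner start, chr4:138819258-138819507, minus strand: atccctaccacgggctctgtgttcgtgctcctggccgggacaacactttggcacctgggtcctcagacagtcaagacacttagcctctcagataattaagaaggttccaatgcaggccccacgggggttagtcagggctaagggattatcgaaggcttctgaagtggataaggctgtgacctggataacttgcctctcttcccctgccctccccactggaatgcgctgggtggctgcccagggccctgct
Pla2g2d, chr4:138775485-138775734, plus strand: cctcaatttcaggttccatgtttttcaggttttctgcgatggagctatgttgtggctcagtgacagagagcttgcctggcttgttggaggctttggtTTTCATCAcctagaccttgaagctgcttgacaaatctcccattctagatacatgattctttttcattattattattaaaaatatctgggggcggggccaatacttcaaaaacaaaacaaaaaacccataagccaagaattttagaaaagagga

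The Pla2g2e window held 2 matches to TGANTCA, the letters bound by AP-1 (Fos and Jun proteins), which read the same on both strands. The first begins at position -87 from the start and is in capitals above, and the second begins at position 27 of the transcript and is not printed. Of 32851 RefSeq windows of the same 300 bases, 7.81% held at least 1 such match and 0.46% held 2 or more. The Pla2g2d window held 1 match to TGATGNAA, a core of sites for ATF4, on the minus strand at position -153, and 3.97% of windows held one. GTAAACA, a core of FoxO sites, occurred in 0 of the 8 windows of the 7 genes and in 3.65% of all windows. The searched motifs do not overlap one another in these windows. Neither Pla2g5 window held a match to any of the 3 motifs, and its distal window carries the 12-base word tgtggaccggat 5 times, where the most repeated 12-base word of the Pla2g2e and Pla2g2d windows occurs 1 time. Such matches describe the letters only.

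Pla2g2e encodes the group IIE enzyme, known from adipose tissue and skin. Its counts in DMSO were 0, 0 and 0 in replicates 1, 2 and 3. With FoxOi they were 192, 210 and 263. With loperamide they were 0, 0 and 1, and with both compounds 4, 3 and 2. The gene was thus counted in each FoxOi library, was low but present in each library with both compounds, and was nearly or wholly without counts in the other 6.

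As CPM, Pla2g2e stood at 12.1 ± 1.25 (SD, n = 3) with FoxOi and at 0.176 ± 0.0489 with both compounds. Set against a floor of 3 counts over the DMSO group, the FoxOi mean was at least 182-fold higher, a bound that was 119.3, 117.6 and 127.4 without DMSO replicate 1, 2 and 3, since the floor of 3 counts then rests on fewer reads. These bounds were added after seeing the data. From FoxOi to both compounds the fitted log2 difference was -6.03 ± 0.28 (SE), with no overlap between the groups. The 3 libraries with both compounds together held 9 counts of Pla2g2e, against 665 in those with FoxOi alone. Against the same floor, the mean with both compounds was 2.66-fold above DMSO, a value that leaves out the counting error of its own 9 counts. Those 9 counts were above the 1 count with loperamide by a ratio of 6.70 with a 95% counting interval of 0.928 to 294. In bulk RNA a smaller share of cells with a transcript and less transcript per cell cannot be told apart, here or for any gene below.

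Pla2g5 encodes the group V enzyme, which hydrolyses phosphatidylcholine well and is known from macrophages, heart and adipocytes. Its counts were 1, 3 and 2 in DMSO. With FoxOi they were 56, 95 and 90. They were 2, 3 and 0 with loperamide, and 0, 0 and 0 with both compounds. Every FoxOi library was above every other library, while the ranges of DMSO and loperamide overlapped.

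The mean of Pla2g5 went from 0.132 ± 0.0626 CPM in DMSO to 4.36 ± 1.01 with FoxOi (SD, n = 3), a log2 difference of 4.96 ± 0.45. Without DMSO replicate 1 that difference was 4.60 and without DMSO replicate 2 it was 5.28, as each rests on few control counts. With both compounds the level was at least 73.8-fold lower than with FoxOi, and at least 47.1-fold to 50.5-fold lower with 1 library of the combination left out, again through the floor. Set at a floor of 3 counts, the combination was 2.24-fold below the DMSO mean, a value that leaves out the counting error of the 6 DMSO counts. The loperamide level, 0.138 ± 0.121 CPM, was at a log2 difference of 0.00 ± 0.96 from DMSO, an error that leaves changes of several fold undetectable at this depth.

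Across the 12 libraries the logarithms of Pla2g2e and Pla2g5 had a Pearson r of 0.97, a value set by the 3 FoxOi libraries standing apart, which share their treatment. With both compounds Pla2g2e had counts in 3 of 3 libraries, at 2 to 4 each, and Pla2g5 in 0 of 3, which is close to the limit of detection for both genes.

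The macrophage and leukocyte marker list also had its highest sum with FoxOi, though not all of its markers moved. Its 9 markers summed to 4.62 to 6.20 CPM in DMSO, 21.8 to 23.3 with FoxOi, 4.26 to 4.82 with loperamide and 7.31 to 7.67 with both compounds. Most of the FoxOi sum was Cd68, a lysosomal glycoprotein, at 17.8 ± 0.169 CPM against 2.08 ± 0.596 in DMSO. Csf1r had 26, 62, 11 and 4 counts in the order DMSO, FoxOi, loperamide and both. In the same order Cd14 had 2, 16, 2 and 0 counts and Itgam 2, 11, 1 and 4, so these 3 genes were also highest with FoxOi. Lyz2 stood at 2.54, 3.24, 2.87 and 2.78 CPM. Ptprc had 1, 2, 1 and 1 counts, Adgre1 had 0, 1, 0 and 2, Aif1 had 0, 2, 0 and 0, and Fcgr1 had 1, 0, 0 and 0. The ductal marker Spp1, given above, was also highest with FoxOi. The part of these markers in the Pla2g2e and Pla2g5 values was not tested.

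**Figure D1:**
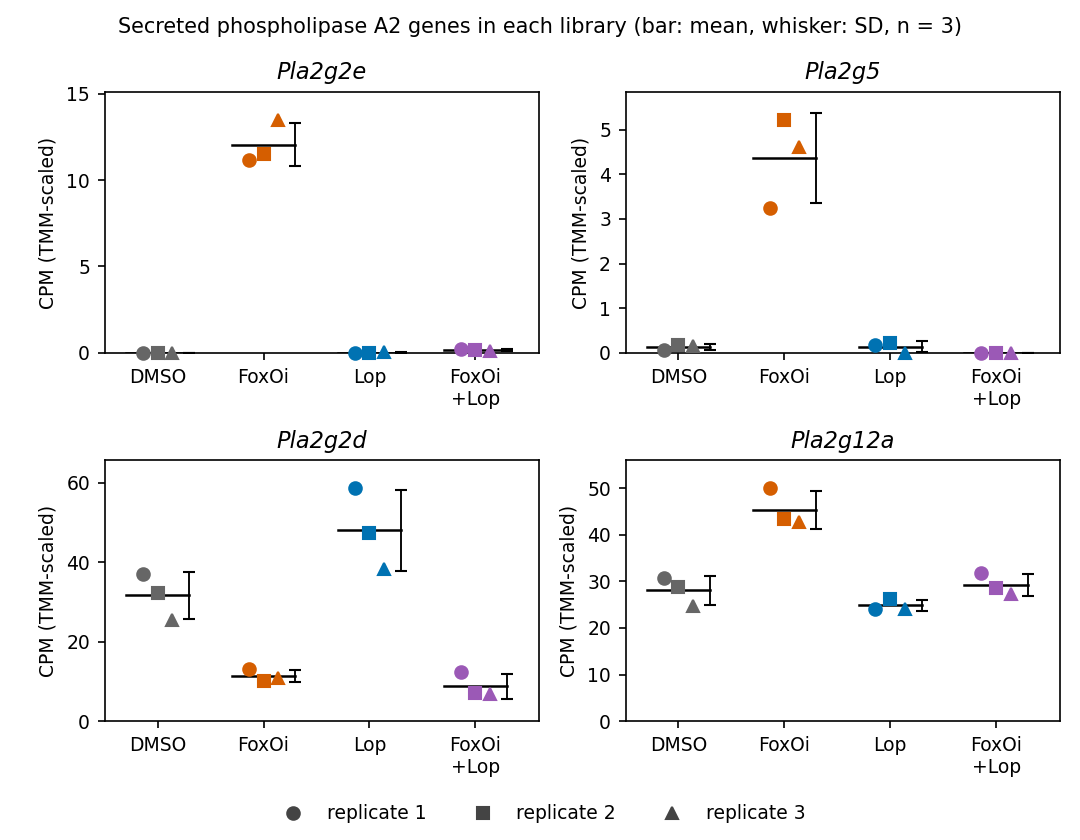
Level of Pla2g2e, Pla2g5, Pla2g2d and Pla2g12a in CPM (linear axes from 0) in each of the 12 libraries by group; symbols are replicate numbers, the bar is the mean and the whisker the SD of 3 libraries. Pla2g2e and Pla2g5 are high with FoxOi alone, at means of 12.1 and 4.36 CPM, while Pla2g2d is low in both groups with FoxOi and highest with loperamide at 48.0.

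Pla2g2d encodes the group IID enzyme, known from lymphoid tissue and for dampening immune responses. Unlike Pla2g2e and Pla2g5, it was lower with FoxOi than in DMSO. Its counts were 581, 520 and 347 in DMSO, and 225, 183 and 213 with FoxOi. With loperamide they were 629, 622 and 531 in smaller libraries, and with both compounds 226, 115 and 111. Both groups with the inhibitor lay below both groups without it in every library.

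The means of Pla2g2d were 48.0 ± 10.2 CPM with loperamide, 31.7 ± 5.87 in DMSO, 11.3 ± 1.56 with FoxOi and 8.75 ± 3.08 with both compounds (SD, n = 3). In this order the first pair did not overlap, though narrowly, with a lowest loperamide library of 38.2 and a highest DMSO library of 37.1 CPM. DMSO and FoxOi did not overlap either, and FoxOi and the combination did, at 10.05 to 13.1 and 6.77 to 12.3 CPM. Replicate 1 was the highest library of its group in all 4 groups. Within replicate numbers, Pla2g2d was lower with both compounds than with FoxOi in 3 of 3 pairs, from 13.1 to 12.3, 10.05 to 7.19 and 10.9 to 6.77 CPM, and higher with loperamide than in DMSO in 3 of 3.

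The fitted log2 difference of Pla2g2d from DMSO was -1.48 ± 0.22 with FoxOi, 0.60 ± 0.21 with loperamide and -1.85 ± 0.23 with both compounds (SE). From loperamide to the combination it was -2.44 ± 0.23. The effect of loperamide was 0.60 without the inhibitor and -0.36 ± 0.24 with it, and the difference of these effects was -0.96 ± 0.32. In the fit blocked on replicate number these values were 0.60 ± 0.09, -0.39 ± 0.12 and -0.98 ± 0.15. Without FoxOi_Loperamide replicate 1 the value with the inhibitor was -0.70 and the difference of effects -1.29. The summed beta cell markers given above, mostly Ins2 and Iapp, were also lower in both groups with FoxOi. Ins1, Ins2, Pdx1, Nkx6-1, Mafa, Slc2a2 and Slc30a8 each had lower means in both groups with the inhibitor than in both without it. Iapp and G6pc2 did not. In the order DMSO, FoxOi, loperamide and both, Iapp stood at 18254, 14665, 13322 and 6236 CPM and G6pc2 at 1665, 1705, 1813 and 1620. Slc30a8 stood at 390, 318, 414 and 369. The part of these markers in the Pla2g2d values was not tested.

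Pla2g12a encodes the group XIIA enzyme, an atypical member with a distinct calcium loop and weak activity that is transcribed in many tissues. It was counted in every library. Its counts were 481, 462 and 336 in DMSO and 861, 789 and 835 with FoxOi. With loperamide they were 259, 346 and 335, and with both compounds 583, 458 and 447. After scaling, the 3 FoxOi libraries were the highest of the 12, at 42.8 to 50.0 CPM.

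The means of Pla2g12a were 45.4 ± 4.02 CPM with FoxOi, 29.2 ± 2.29 with both compounds, 28.1 ± 3.11 in DMSO and 24.8 ± 1.26 with loperamide (SD, n = 3). The combination and DMSO overlapped, with a log2 difference of 0.06 ± 0.11, as did DMSO and loperamide, at -0.18 ± 0.11. Within replicate numbers, loperamide was below DMSO in every pair, from 30.75 to 24.1, 28.8 to 26.3 and 24.7 to 24.1 CPM. The combination was above DMSO in replicates 1 and 3 and slightly below it in replicate 2. These SE leave the pairing out. FoxOi was 0.69 ± 0.10 above DMSO on the log2 scale, and the combination was 0.63 below FoxOi (log2 difference -0.63 ± 0.10) and 0.23 ± 0.11 above loperamide. The effect of loperamide was -0.18 without and -0.63 with the inhibitor, a difference of -0.46 ± 0.15. That difference was -0.33 without DMSO replicate 3 and also -0.33 without FoxOi replicate 1. Like Pla2g2e and Pla2g5, Pla2g12a was highest with FoxOi alone and lower with both compounds, over a far smaller range between groups.

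The other 3 genes were at or near 0. Pla2g2f, the group IIF enzyme known from the epidermis, was counted 1, 0 and 0 times in the DMSO libraries and 1, 0 and 3 times in those with FoxOi. Loperamide libraries held 0, 2 and 8 counts and those with both compounds 3, 0 and 0. Of its 10 loperamide counts 8 came from replicate 3, and the groups overlapped. Pla2g1b, the digestive enzyme that acinar cells of the pancreas secrete as a proenzyme, summed to 3 counts in the DMSO group, 3 in FoxOi, 0 in loperamide and 2 in the combination. No fold was computed for it, as every group was at or under the floor. Pla2g10, the group X enzyme of gut and testis with high activity on phosphatidylcholine, had 0 counts in all 12 libraries, which allows a mean of up to 0.0794 CPM in the loperamide group, the shallowest, and 0.0546 with FoxOi (3 counts, counting error only).

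Levels of different genes were compared on the authors' FPKM values, which divide by gene length. In DMSO the family consisted of Pla2g12a at 16.7 ± 1.74 and Pla2g2d at 14.0 ± 2.50 FPKM (SD, n = 3), which together made up nearly all of a summed 30.9 ± 4.31. With FoxOi the sum was 46.6 ± 2.13 FPKM, of which Pla2g12a was 57.3 ± 3.06%, Pla2g2e 27.9 ± 3.31%, Pla2g2d 10.7 ± 0.97% and Pla2g5 3.93 ± 1.07%. With loperamide Pla2g2d was the largest part, at 58.3 ± 5.45% of a sum of 36.1 ± 4.49. With both compounds Pla2g12a was 81.0 ± 3.86% of a sum of 21.5 ± 2.95 FPKM.

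The share next to that of Pla2g12a belonged to Pla2g2e with FoxOi and to Pla2g2d with both compounds, at 17.7 ± 3.84%. The place of Pla2g12a itself depends on the gene length that is used. Per kilobase of the merged exons in GENCODE M21, of which Pla2g12a has 3682 bases and Pla2g2e 917, the FoxOi means were 12.3 CPM for Pla2g12a and 13.1 for Pla2g2e, against 26.7 and 13.0 in the authors' FPKM. In DMSO the same change put Pla2g12a at 7.62 and Pla2g2d at 14.1 CPM per kilobase. The comparisons of 1 gene between groups do not use the length.

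**Figure D2:**
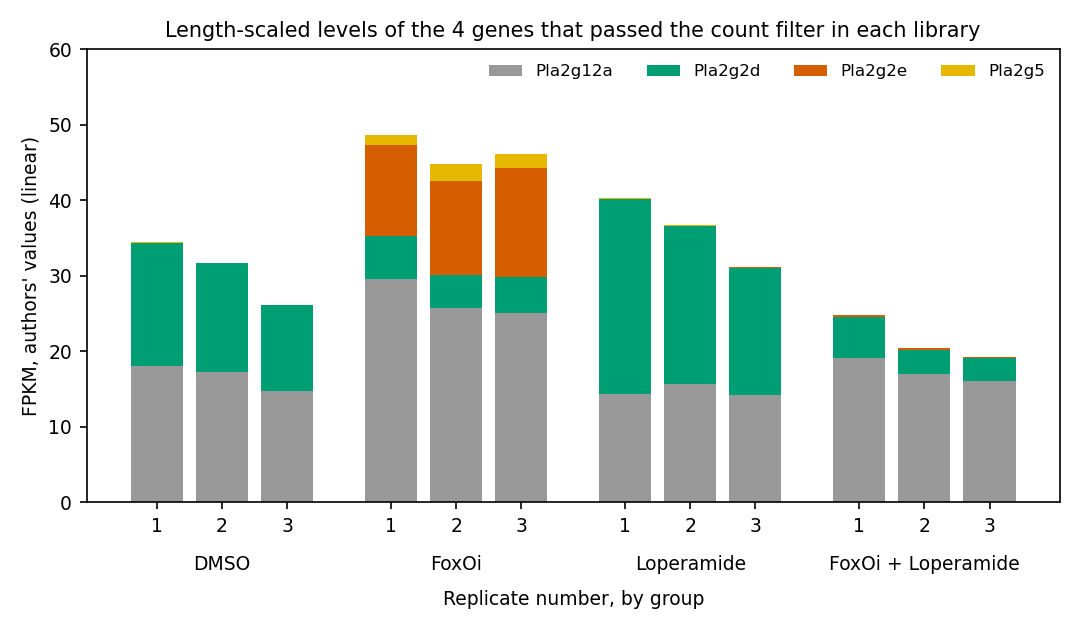
Authors' FPKM (linear axis from 0) of Pla2g12a, Pla2g2d, Pla2g2e and Pla2g5 stacked for each of the 12 libraries, by group and replicate number. Pla2g2e forms a visible layer in the 3 FoxOi libraries only, and the stack averages 46.6 FPKM with FoxOi and 21.5 with both compounds.

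The genes around the cluster were listed to see how the levels vary along the chromosome. Within 250 kb of a member on chromosome 4 lie 10 further protein-coding genes, 8 of which were tested. With FoxOi 3 of them rose and 2 fell (edgeR, adjusted p under 0.05), beside 20.7% and 20.3% of all genes. Otud3, which encodes a deubiquitinase, lies on the minus strand with its nearer end 12562 bases beyond the end of Pla2g2e. Otud3 rose by 0.91 ± 0.12 on the log2 scale (adjusted p = 2.23e-05), from 15.2 to 28.5 CPM. Tmco4 rose by 2.09 ± 0.11 (adjusted p = 6.19e-09) and Nbl1, a secreted antagonist of BMP proteins, by 2.21 ± 0.29 (2.72e-05). Rnf186, a ubiquitin ligase gene between Otud3 and Tmco4, fell by 2.08 ± 0.36 (3.40e-04), and Vwa5b1 by 0.90 ± 0.32 (0.0357).

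With both compounds the neighbours that rose with FoxOi were at different levels. Otud3 went from 28.5 CPM with FoxOi to 19.6 with both (log2 difference -0.54 ± 0.11, edgeR, adjusted p = 0.00261). The difference of loperamide effects on Otud3 was -0.42 ± 0.17 (adjusted p = 0.137). Tmco4 stood at 36.0 CPM with both compounds and at 33.5 with FoxOi (log2 difference 0.10 ± 0.10, edgeR, adjusted p = 0.496), and its difference of loperamide effects was -0.20 ± 0.16 (adjusted p = 0.507). Nbl1 went from 4.09 CPM with FoxOi to 0.664 with both, and its difference of effects was -3.35 ± 0.46 (adjusted p = 3.34e-04). Pla2g2c, the group IIC gene next to Pla2g2f, was at 1.15 CPM in DMSO and 0.835 with FoxOi (log2 difference -0.47 ± 0.38, adjusted p = 0.350). Ubxn10 was at -0.23 ± 0.15 (0.246) and Micos10 at -0.12 ± 0.11 (0.384). Gm13030, which lies between Pla2g5 and Pla2g2e, had 1 count in all 12 libraries, and the serotonin receptor gene Htr6 had 35, so neither was tested. Near Pla2g12a, Pla2g1b and Pla2g10 lie 33 protein-coding genes, of which 29 were tested, and 8 rose and 8 fell with FoxOi.

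**Figure D3:**
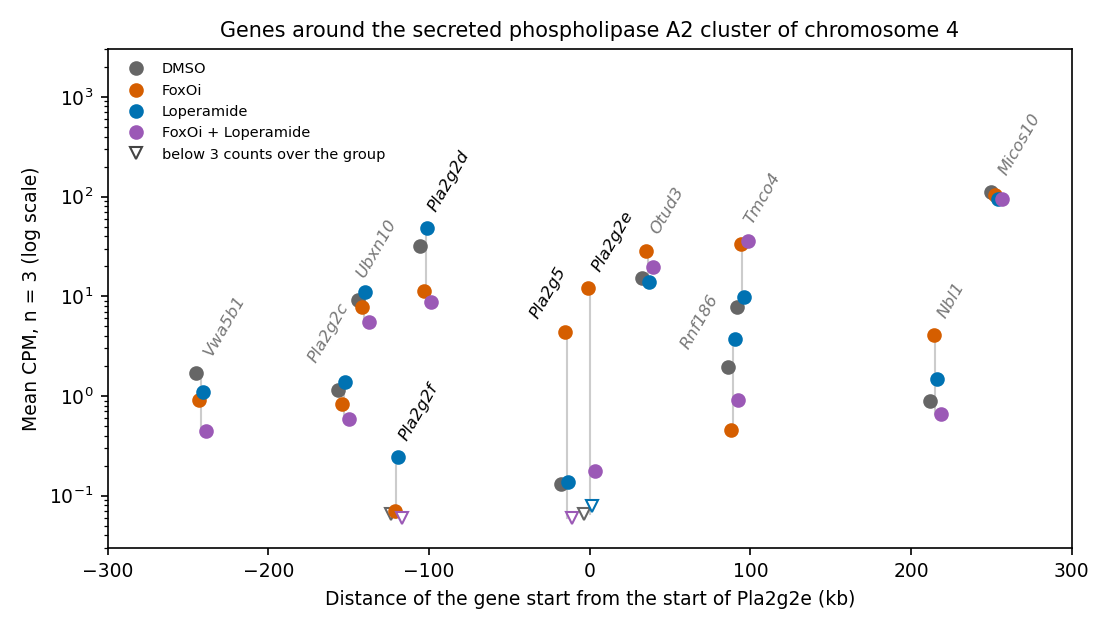
Mean level in CPM (log axis, n = 3) of the tested genes and the members on chromosome 4 against the distance of each gene's start from that of Pla2g2e in kb; filled circles are the 4 groups, set slightly apart for legibility, and open triangles mark groups under 3 counts, drawn at that floor. Pla2g2e and Pla2g5 have the widest spread of means of the genes drawn, and Micos10, at 94.4 to 112 CPM, the narrowest.

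The genes with the most similar pattern over the 12 libraries were found by the Pearson r of log2(CPM + 0.5) among 12766 genes, as a description. For Pla2g2e they included Mmp10, a matrix metalloproteinase (r = 0.994), Prss56, a serine protease (0.994), Ereg, a ligand of the EGF receptor (0.992), and Cryab, a small heat shock protein (0.990). Mmp10 had 0 counts in DMSO, 6.03 CPM with FoxOi and 0.195 with both compounds, and Ereg had 2 counts, 2.76 and 0.0806 CPM. For Pla2g5 they were Myh7b (0.986), Prss56 (0.983), Serinc2 (0.983), Rnf222 (0.982) and Hspb7 (0.982). Serinc2 was the most abundant, at 21.4 CPM with FoxOi and 1.44 in DMSO.

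For Pla2g2d the closest genes were Ampd2, which encodes AMP deaminase (r = 0.980), the potassium channel gene Kcnh6 (0.979), Cplx2, a complexin of exocytosis (0.977), Scml4 (0.976) and the receptor kinase gene Grk3 (0.974). Kcnh6 stood at 77.0 CPM in DMSO, 15.3 with FoxOi, 109.8 with loperamide and 15.1 with both. For Pla2g12a they were the glutamine transporter gene Slc1a5 (0.981), Arpc4 (0.977), Dera (0.977), the glucose transporter gene Slc2a1 (0.975) and Abcf2 (0.975). Slc1a5 stood at 25.96, 66.9, 18.1 and 29.9 CPM in the same order. The points share the 4 treatments and their libraries, and no p is given.

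The other genes of the pathway were taken from 6 lists of 92 genes, of which 91 were found in the files and 53 were tested. As the lists were drawn up with earlier results of these data known, their shares and p-values are not free of that choice. With FoxOi 19 rose and 8 fell, 50.9% of those tested beside 40.9% of all genes, and their median log2 difference was 0.15 beside 0.01 over all genes. With loperamide 13 rose and 6 fell, 35.8% beside 31.9% of all genes (16.1% higher and 15.8% lower). With both compounds 12 rose and 11 fell against DMSO, 43.4% beside 45.5% (22.3% higher and 23.2% lower). Against FoxOi the combination had 3 higher and 12 lower, 28.3% beside 26.6% (11.5% and 15.1%). Against loperamide it had 17 higher and 16 lower, 62.3% beside 38.9% (18.4% and 20.5%). Without FoxOi_Loperamide replicate 2 that last count was 21 in place of 33. In a fit blocked on replicate number, 29 genes were called for loperamide and 25 for the combination against FoxOi. The shares of all genes called in these alternative fits are not given here, so these counts show nothing particular to the pathway.

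Among the other secreted enzymes and their partners, 3 of 10 genes were tested. Pla2g2a, a pseudogene in some mouse strains by its annotation, had 2 counts in all, and Pla2r1, the receptor that binds several secreted enzymes, had 2. Pla2g3, Pla2g12b, Oc90 and Proca1 were too low to be tested. Anxa1, whose product is known as an inhibitor of phospholipase A2, had 0 counts in every library. Anxa2, the annexin that pairs with S100a10, was at 3.87 ± 0.92 CPM in DMSO and rose to 20.4 ± 3.86 under FoxOi (SD, n = 3), by a log2 difference of 2.39 ± 0.22 (edgeR, adjusted p = 8.78e-07). S100a10 rose by 1.98 ± 0.11 with FoxOi (1.05e-08) and fell by 0.98 ± 0.11 with loperamide (1.88e-05).

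Among 11 tested intracellular and platelet-activating factor type enzymes, 2 rose and 2 fell with FoxOi, 36.4% beside 40.9% of all genes. Under loperamide 5 rose and 0 fell, 45.5% beside 31.9% of all genes. Prdx6, a peroxiredoxin with phospholipase A2 activity, rose with FoxOi from 32.1 ± 4.08 to 78.4 ± 18.8 CPM (log2 difference 1.29 ± 0.14, adjusted p = 6.41e-06). Pafah2 rose by 0.64 ± 0.10 (9.47e-05), and Pla2g6, the calcium-independent enzyme of beta cells, fell by 0.57 ± 0.08 (7.60e-05). With loperamide Pafah2 rose by 0.51 ± 0.10 (0.00118) and Pnpla2, the main triglyceride lipase, by 0.46 ± 0.11 (0.00477). Pla2g4a, the arachidonate-selective cytosolic enzyme, named here after its values were seen, had 3 counts in DMSO and 7 with FoxOi and was not tested.

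Of 14 tested eicosanoid enzymes, 4 rose and 2 fell with FoxOi, 42.9% beside 40.9% of all genes. Ptgs2, the inducible cyclooxygenase, went from 0.899 ± 0.33 CPM in DMSO to 19.2 ± 4.24 with FoxOi (SD, n = 3), a log2 difference of 4.40 ± 0.31 (adjusted p = 9.05e-08). With loperamide it stood at 1.02 ± 0.314 and with both compounds at 1.79 ± 0.779 CPM, so FoxOi libraries were high and the other 3 groups overlapped. Hpgds, a prostaglandin D synthase, rose by 2.74 ± 0.14 (4.38e-09), from 8.11 ± 1.43 to 54.0 ± 2.96 CPM, and stood at 24.7 ± 2.11 with both. Alox5ap, the partner of 5-lipoxygenase, fell by 1.21 ± 0.22 (4.71e-04).

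Ptgs1 and Ptges, named after their values were seen, moved in opposite directions with FoxOi. Ptgs1, the constitutive cyclooxygenase, was at 5.42 ± 3.43 CPM against 1.13 ± 0.168 in DMSO, with FoxOi libraries from 3.43 to 9.38 (log2 difference 2.27 ± 0.52, adjusted p = 0.00372), and Ptges, a prostaglandin E synthase, was at -1.17 ± 0.33 (0.0111). With loperamide the skin lipoxygenase genes Aloxe3 and Alox12b rose by 2.05 ± 0.26 (3.64e-05) and 1.33 ± 0.33 (0.00695), from 1.04 and 0.574 CPM in DMSO.

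Of 4 tested receptors, Ffar1, the long-chain fatty acid receptor of beta cells, fell with FoxOi by 2.47 ± 0.11 (adjusted p = 2.25e-09), from 434 ± 1.44 to 78.6 ± 7.17 CPM. Ptger4, a prostaglandin E2 receptor, rose by 0.90 ± 0.12 (3.14e-05) and Ffar4, another fatty acid receptor, by 1.68 ± 0.41 (0.00461), the latter at 1.56 CPM or less on average. Ptger1 was at 0.08 ± 0.47 (adjusted p = 0.907).

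**Figure D4:**
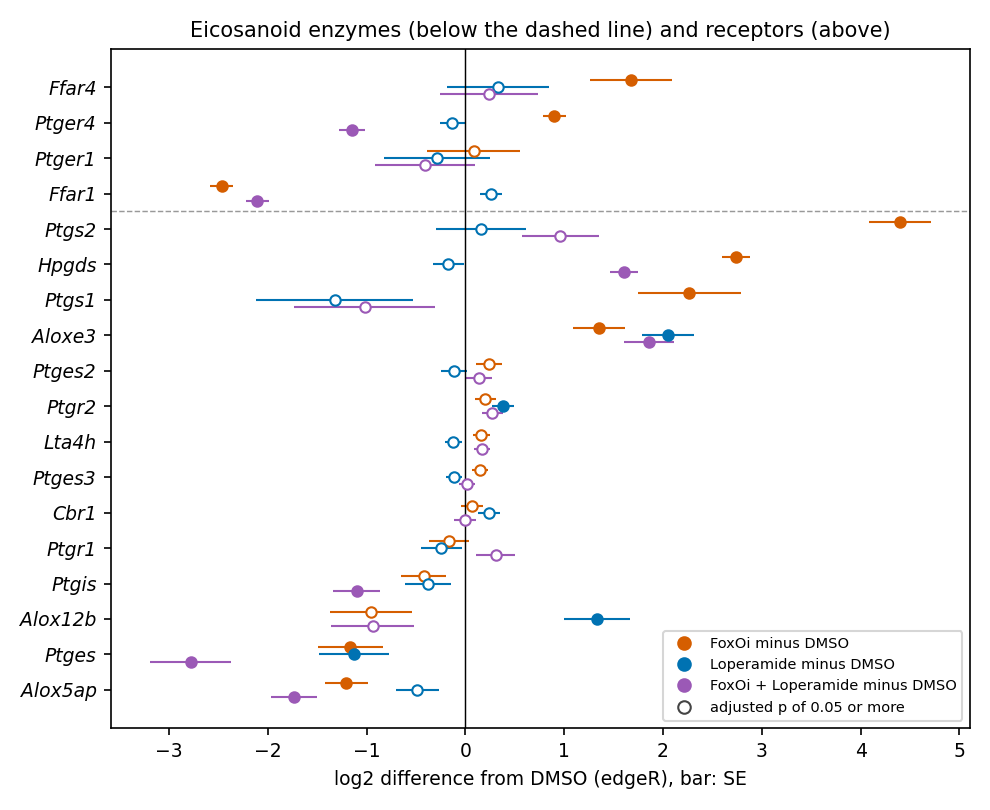
Log2 difference from DMSO with its SE (edgeR, linear axis) for the 14 tested eicosanoid enzymes and 4 receptors with FoxOi, loperamide and both compounds; filled points have an adjusted p under 0.05. Among the FoxOi points Ptgs2 lies furthest right, at 4.40, and Ffar1 furthest left, at -2.47.

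Among 14 tested genes of the lysophospholipid cycle (acyl-CoA synthetases, acyltransferases and lysophospholipases), 6 rose and 3 fell with FoxOi. That was 64.3%, beside 40.9% of all genes. The acyl-CoA synthetase genes Acsl3 and Acsl5 rose by 0.92 ± 0.12 (adjusted p = 3.64e-05) and 0.45 ± 0.07 (1.46e-04), and Lyplal1, a lysophospholipase-like gene, fell by 0.88 ± 0.13 (1.06e-04). With loperamide Lpcat1, an acyltransferase, rose by 0.95 ± 0.12 (3.40e-05) and Mboat1 fell by 0.64 ± 0.10 (2.46e-04). Of 7 tested genes of lysophosphatidic acid, 3 rose and 0 fell with FoxOi, 42.9% beside 40.9% of all genes. Those that rose were the lipid phosphatase genes Plpp2, by 1.31 ± 0.11 (2.60e-07), and Plpp1, by 1.19 ± 0.15 (1.58e-05), and the receptor gene Lpar2, by 0.48 ± 0.10 (0.00145). Lpar2 also rose with loperamide, by 0.73 ± 0.10 (8.64e-05), while Plpp1 fell by 0.73 ± 0.16 (0.00243).

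Whether loperamide acted differently with the inhibitor than without it was tested as the difference of the 2 effects. Of the 53 genes, 10 had a lower and 2 a higher effect with the inhibitor, 22.6% beside 9.48% of all genes (5.82% lower and 3.66% higher). The count was 7 without DMSO replicate 2 and 24 in the fit blocked on replicate number, with no share of all genes given for these alternative fits. For Ptgs2 the difference was -3.59 ± 0.56 on the log2 scale (edgeR, adjusted p = 8.84e-04), and for Ptger4 -1.92 ± 0.18 (2.14e-05). Ptger4 stood at 9.93 CPM in DMSO, 18.5 with FoxOi, 9.05 with loperamide and 4.46 with both. Prdx6 had a difference of -1.23 ± 0.21 (0.00149) and Hpgds of -0.96 ± 0.20 (0.00722). For Pla2g2d (-0.96) and Pla2g12a (-0.46) the difference of effects is a description only and was not tested. Without loperamide, the inhibitor's log2 effect was -1.48 on Pla2g2d and 0.69 on Pla2g12a. No difference of effects is given for Pla2g2e and Pla2g5, since a fitted value for a gene without counts in a group depends on the prior count.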

How the data were processed

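RNA of 12 Min6 libraries was read as single reads of 50 bases, per the labels. The authors deposited raw counts and FPKM values for each gene and library. Tools and builds listed in the submitters' processing notes are STAR 2.7.5a, Picard 2.19.2, DESeq2, GRCm38 and mm10. Not given in the sources used here are the counting tool and its strand setting. Checked on 11928 genes, the deposited FPKM carry library factors that deviate by at most 0.226% from DESeq2 size factors, while the lengths used are not given. The labels do not say whether libraries are separate cultures, so p-values measure only the spread between these libraries. Within groups, pairs of libraries differed beyond counting noise (chi-square over its degrees of freedom 5.34 to 33.62), so none was treated as a repeat.

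Counts were fitted with edgeR 4.0.16 in R 4.3.3 (filterByExpr with minimum count 10 and minimum total 15, TMM, robust quasi-likelihood, group as the only term, prior count 0.125), which left 16808 genes. Calls were made where the p adjusted by Benjamini and Hochberg's method over these genes was under 0.05. For the SE, the size of the log2 difference was divided by the root of F. Where a group lacked counts, 3 counts in that group served as the floor, which covers counting error only, and the mean CPM stood for the group it was compared with. The fit was tested on simulated data.

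The members and lists were chosen with earlier results of these data known. Named genes are the 7 members, from each list the called genes with the smallest adjusted p (up to 3 with FoxOi, 2 with loperamide and 2 for the difference of effects), protein-coding genes within 250 kb of a member, and the 5 genes most similar to each member with a mean of at least 1 CPM in a group. The text marks any others as picked after seeing values. Of the genes most similar to Pla2g2e, 1 is not reported here. Same-numbered libraries share a code across groups in the labels. Their deviations from the group means correlated at 0.112 to 0.596 in 18 of 18 pairs, so the numbers were taken to pair them. The main fit does not use this pairing, so its SE and p-values leave it out. Only the replicate block among the alternatives uses it. Alternatives were DESeq2 1.42.0, limma 3.58.1 on FPKM, other scaling, no filter, the replicate block, fits to the compared groups and leaving out each library.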

Additional observations from a re-analysis of the deposited data

Results flagged for a closer look

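Of the 12 related genes called for it, 10 are named by the rule of up to 2 per list. For these the effect of loperamide with the inhibitor differed from its effect without it, by the test of that difference in the fit across all genes (edgeR, adjusted p under 0.05). The differences of the log2 effects were -3.59 for Ptgs2, -1.92 for Ptger4, -1.23 for Prdx6, -0.96 for Hpgds, -0.81 for Plpp2, -0.74 for Plpp1, -0.71 for Pnpla8 and -0.62 for S100a10. They were 0.72 for Lyplal1 and 0.40 for Lpcat3. The calls for Plpp1 were lost in 13 of 19 alternatives, for Lpcat3 in 9, for S100a10 in 7, for Lyplal1 in 6 and for Pnpla8 in 2, and each of the other 5 was lost in 1, on unfiltered FPKM.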

How the results depend on the processing

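With limma on unfiltered log2(FPKM + 1), the counts of related genes called were 8 with FoxOi (27 in the edgeR fit), 1 with loperamide (19), 12 with both compounds against DMSO (23), 7 against FoxOi (15), 5 against loperamide (33) and 0 for the difference of effects (12), and the cause was not tested. In the fit blocked on replicate number the counts were 33, 29, 32, 25, 39 and 24 in the same order. That block took no named gene's call away. Leaving out 1 library gave 22 to 28, 13 to 21, 21 to 25, 12 to 17, 21 to 27 and 7 to 11. The share of all genes called in the same fits is not given here, so these counts alone do not show whether all genes shifted alike. No alternative turned the direction of the 36 named results on related genes, of which 59 of 554 recomputed values lost the call. Of 219 recomputed values of the members 21 moved by more than their spread, among them the log2 differences of Pla2g5 with FoxOi (1.405 on log2(FPKM + 1)) and of Pla2g2e from FoxOi to both compounds (-3.55), where the pseudocount shrinks low genes. A fit to the compared groups alone does not exist for the difference of effects. Depth limits Pla2g2f, Pla2g1b and Pla2g10. No change was detectable for Pla2g1b and Pla2g10, and 8 of the 10 loperamide counts of Pla2g2f came from 1 library.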
